A study of Mus musculus with 6 samples.

Results

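Transcript levels of 9 genes of glycosphingolipid and ganglioside metabolism were examined in the livers of mice that lack *Spns1*, which encodes a transporter of lysolipids in the lysosome membrane. The genes were chosen by name and role from the 54532 genes listed in the deposited table, with earlier results of these data known. They comprise the synthases *Ugcg*, *B4galt5*, *B4galt6*, *St3gal5*, *B4galnt1* and *A4galt* and the hydrolases *Neu3*, *Hexa* and *Gba2*. RNA-Seq was performed on 3 g*Spns1*-cKO and 3 control livers with 1 library per mouse. The g*Spns1*-cKO mice were *Spns1* fl/fl animals carrying Rosa26Cre-ERT2, a ubiquitously expressed, tamoxifen-inducible Cre, and received tamoxifen as pups, so that *Spns1* was deleted throughout the body and not only in the liver. By the methods, the controls were *Spns1* fl/fl littermates without Cre, whereas the sample labels call them wild type. Whether these controls also received tamoxifen is not stated plainly. The loss of *Spns1*, the presence of Cre and any difference in tamoxifen therefore cannot be told apart. All animals were on a C57BL/6 background. The age at collection and the sex of these 6 mice are not given in the sources used here.

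Glycosphingolipids are membrane lipids in which sugars are attached to ceramide. UGCG adds glucose to ceramide on the cytosolic face of the Golgi, lactosylceramide synthases add galactose, and the branches then part. Sialic acid from ST3GAL5 opens the ganglioside series with GM3, and galactose from A4GALT opens the globo series with Gb3. Used glycosphingolipids reach the lysosome by endocytosis, where glycosidases and sialidases take the sugars off in reverse order and leave ceramide and then sphingosine. Defects of these hydrolases cause storage diseases such as Tay-Sachs disease.

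The libraries held between 30350002 and 35295611 counts on genes, and 15449 genes had enough counts to be tested. Levels are given as CPM, counts relative to the library size after scaling by the trimmed mean of M values (TMM), which compares libraries over the bulk of their genes, and mean ± SD are over 3 mice per group. *Spns1* itself was 1.83-fold lower in g*Spns1*-cKO livers (log2 fold change -0.87, standard error 0.25, adjusted p = 0.03 by edgeR's quasi-likelihood test), and its 3 g*Spns1*-cKO values lay below the 3 controls. The g*Spns1*-cKO values were 17.85, 30.62 and 17.76 CPM, and the lowest control had 34.58 CPM. By the paper, the loxP sites flank exon 3, so counts over the whole gene do not measure the deletion itself. Of all genes tested, 21.3% were higher and 20.5% lower in the g*Spns1*-cKO group at the threshold of 0.05 on the adjusted p. With 41.8% of genes called in either direction, a call was common in this comparison. TMM factors ranged from 0.834 to 0.873 for controls and from 1.16 to 1.18 for g*Spns1*-cKO livers. When libraries were scaled by their totals alone, the median over all tested genes was 0.46 on the log2 scale rather than 0.01, and log2 fold changes of the 9 genes shifted upward with it.

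Of the 9 genes, 5 were higher in g*Spns1*-cKO livers (*Ugcg*, *B4galt6*, *A4galt*, *Neu3* and *Hexa*), *Gba2* was lower, and *B4galt5*, *St3gal5* and *B4galnt1* did not pass the threshold. The ranges of the 2 groups did not overlap for the 6 called genes and overlapped for the other 3. Among all genes tested, every g*Spns1*-cKO liver was above every control for 27.1% and below for 26.9%, or 54.1% without overlap in either direction. Some of the 9 genes were also singled out by the study from these samples, so this count is not independent evidence of a direction. The RNA came from whole liver, where fewer cells of a type and less RNA per cell cannot be told apart. All 9 genes passed the filter on low counts. *A4galt* reached the level required by the filter only in g*Spns1*-cKO livers, and the other 8 reached it in both groups.

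**Figure D1:**
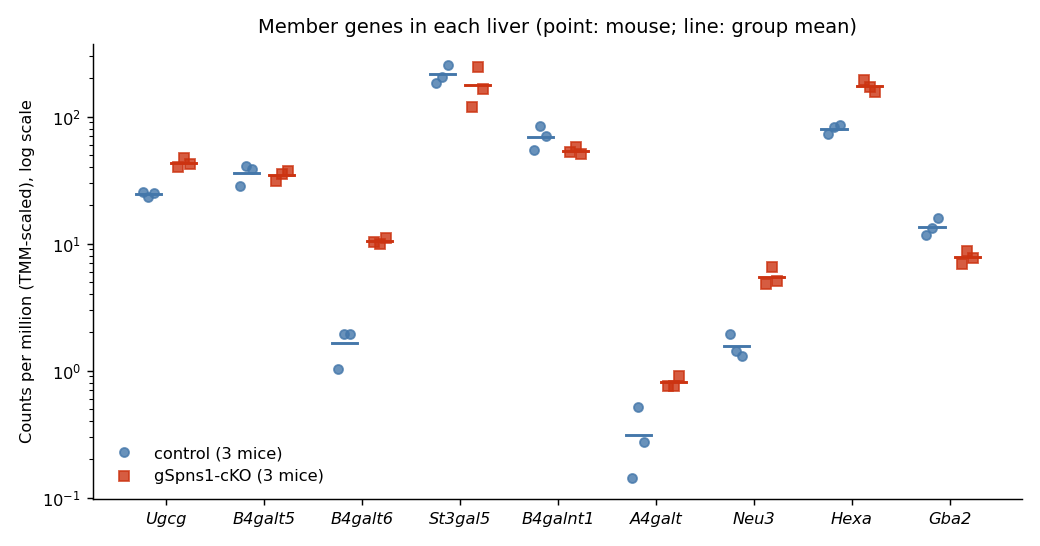
Each point is the TMM-scaled level of 1 gene in 1 liver, in CPM on a log axis, for control (blue circles) and g*Spns1*-cKO mice (red squares), and each line is a group mean. *Ugcg*, *B4galt6*, *A4galt*, *Neu3* and *Hexa* lay higher in all 3 g*Spns1*-cKO livers, *Gba2* lay lower, and the groups overlapped for *B4galt5*, *St3gal5* and *B4galnt1*.

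*Ugcg* (ENSMUSG00000028381, plus strand of chr4:59189257-59222833, GRCm38), which encodes glucosylceramide synthase, the entry enzyme of the pathway, rose in g*Spns1*-cKO livers. Control livers had 713, 719 and 628 counts, or 25.4, 23.4 and 24.8 CPM, and g*Spns1*-cKO livers had 1451, 1804 and 1655 counts, or 40.3, 47.0 and 42.1 CPM. The controls were tightly grouped, and the lowest g*Spns1*-cKO liver was well above the highest of them. The means were 24.5 ± 1.04 and 43.2 ± 3.46 CPM, a 1.76-fold difference (log2 fold change 0.82, standard error 0.10, adjusted p = 0.00024 by edgeR).

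The next step, from glucosylceramide to lactosylceramide, is shared by 2 galactosyltransferases, and their transcripts behaved differently. *B4galt6* (ENSMUSG00000056124, minus strand of chr18:20684599-20746404) was counted 29, 60 and 49 times in control livers against 369, 379 and 435 times in g*Spns1*-cKO livers. On the scaled level, this was 1.03, 1.95 and 1.94 CPM against 10.3, 9.88 and 11.1 CPM. All 3 g*Spns1*-cKO livers were far above all controls, and *B4galt6* showed the highest fold change among the 9 genes, 6.34-fold (means 1.64 ± 0.526 and 10.4 ± 0.607 CPM, log2 fold change 2.66, standard error 0.24, adjusted p = 3.18e-05 by edgeR).

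*B4galt5* (ENSMUSG00000017929, minus strand of chr2:167298444-167349183), the other lactosylceramide synthase gene, had 28.2, 41.0 and 38.8 CPM in controls and 31.1, 35.3 and 37.2 CPM in g*Spns1*-cKO livers. The g*Spns1*-cKO values lay inside the control range. The log2 fold change was -0.06 (standard error 0.15, adjusted p = 0.773 by edgeR), with its sign depending on the scaling: it was 0.07 with upper-quartile scaling (adjusted p = 0.711) and 0.39 with scaling by library size only (adjusted p = 0.0454), below the median of all genes under that last scaling. The longest exact stretch shared by the annotated transcripts of *B4galt5* and *B4galt6* was 21 bases.

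Because both genes were measured in the same libraries, their proportion does not depend on scaling between libraries. Per length, as RPKM, the CPM divided by gene length in kilobases,, *B4galt6* made up 2.64%, 3.41% and 3.57% of the summed level of the pair in control livers, against 19.7%, 17.2% and 18.1% in g*Spns1*-cKO mice. The share was higher in all g*Spns1*-cKO livers, yet *B4galt5* still held most of the pair's transcript level in each of them. The sum of both genes was 6.72, 9.84 and 9.35 RPKM in controls and 8.97, 9.91 and 10.5 RPKM in g*Spns1*-cKO livers, so the sums overlapped.

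*St3gal5* (ENSMUSG00000056091, plus strand of chr6:72097592-72154571) encodes GM3 synthase, which attaches sialic acid to lactosylceramide. Its level was 182, 207 and 256 CPM in controls and 118, 246 and 163 CPM in g*Spns1*-cKO livers. It varied most among g*Spns1*-cKO mice of the 9 genes, with a coefficient of variation of 36.8%, because replicate 2 lay within the control range while the other two lay below it. The log2 fold change was -0.29 (standard error 0.26, adjusted p = 0.406 by edgeR). Without g*Spns1*-cKO replicate 2 it was -0.61 (adjusted p = 0.0276), and with scaling by library size only it was 0.16 (adjusted p = 0.628).

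*B4galnt1* (ENSMUSG00000006731, plus strand of chr10:127165225-127172330) encodes the enzyme that makes GM2 from GM3. Control livers had 55.0, 83.6 and 70.2 CPM and g*Spns1*-cKO livers had 52.5, 57.3 and 50.9 CPM. The g*Spns1*-cKO values sat at the low end, and 1 of them exceeded the lowest control. The means were 69.6 ± 14.3 and 53.6 ± 3.33 CPM (log2 fold change -0.38, standard error 0.15, adjusted p = 0.0587 by edgeR). This value was close to the threshold, and the log2 fold change was -0.54 without control replicate 1 (adjusted p = 0.0102). Its sign depended on the scaling: it was 0.07 with scaling by library size only (adjusted p = 0.721), below the median of all genes under that scaling (0.46).

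*A4galt* (ENSMUSG00000047878, minus strand of chr15:83226722-83251774), the Gb3 synthase gene, was the lowest of the 9 genes in both groups. It had 4, 16 and 7 counts in controls and 27, 29 and 36 counts in g*Spns1*-cKO livers, or 0.142, 0.520 and 0.277 CPM against 0.751, 0.756 and 0.916 CPM. Each g*Spns1*-cKO liver was above each control, and the controls differed among themselves by more than the g*Spns1*-cKO livers did. The fold difference was 2.53 (log2 fold change 1.34, standard error 0.48, adjusted p = 0.0461 by edgeR). The call rested on few counts: it was lost when any liver except control replicate 2 was left out, with log2 fold changes down to 0.98 and an adjusted p up to 0.142, and by DESeq2 the adjusted p was 0.0502.

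Among the hydrolases, *Hexa* and *Neu3* were higher and *Gba2* was lower. *Hexa* (ENSMUSG00000025232, plus strand of chr9:59539540-59565109) encodes the alpha subunit of the lysosomal beta-hexosaminidase that turns GM2 into GM3. Its counts were 2038, 2546 and 2166 in controls, against 6956, 6506 and 6170 in g*Spns1*-cKO mice. These were 72.5, 82.7 and 85.6 CPM against 193, 170 and 157 CPM, with a wide gap between the groups. The means were 80.3 ± 6.88 and 173 ± 18.5 CPM, a 2.16-fold difference (log2 fold change 1.11, standard error 0.12, adjusted p = 0.000103 by edgeR).

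*Neu3* (ENSMUSG00000035239, minus strand of chr7:99811439-99828417) encodes a sialidase of the plasma membrane that acts on gangliosides. Controls had 55, 44 and 33 counts of it, against 173, 249 and 200 in g*Spns1*-cKO mice. The levels were 1.96, 1.43 and 1.30 CPM against 4.81, 6.49 and 5.09 CPM, and the lowest g*Spns1*-cKO liver was above the highest control. The difference was 3.49-fold (log2 fold change 1.80, standard error 0.24, adjusted p = 0.000302 by edgeR).

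*Gba2* (ENSMUSG00000028467, minus strand of chr4:43566928-43578873) encodes the glucosylceramidase outside the lysosome lumen, which splits the lipid that UGCG makes. It was the only one of the 9 genes called lower. Control livers had 326, 411 and 403 counts, or 11.6, 13.4 and 15.9 CPM, and g*Spns1*-cKO livers had 250, 334 and 304 counts, or 6.95, 8.71 and 7.73 CPM. On the scaled level, the highest g*Spns1*-cKO liver was below the lowest control. The level was 1.75-fold lower (means 13.6 ± 2.18 and 7.80 ± 0.880 CPM, log2 fold change -0.80, standard error 0.16, adjusted p = 0.00272 by edgeR). With scaling by library size only the log2 fold change was -0.36 and the call was lost (adjusted p = 0.0782). *Gba2* shares 133 exon bases with *Creb3* and 159 with *Rgp1*, both on the opposite strand and both also lower (log2 fold changes -0.54 and -0.38, adjusted p = 0.00265 and 0.0209 by edgeR). Whether the counting used strand is not stated, so reads from these shared bases cannot be told apart.

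The partners of 2 other genes had far fewer counts than the genes themselves. *Hexa* shares 255 exon bases with *Tmem202* on the opposite strand, which had 25 counts over all libraries against 26382 for *Hexa*. *B4galnt1* shares 715 with *Slc26a10*, which had 724 counts against 11984.

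**Figure D2:**
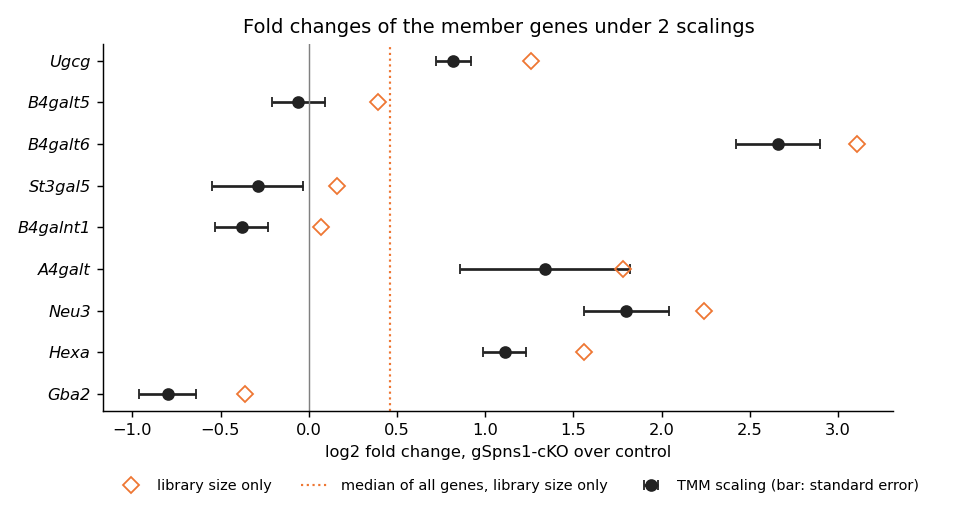
Black points are log2 fold changes (g*Spns1*-cKO over control) of the 9 genes with TMM scaling, with standard errors as bars, and open orange diamonds are the same with scaling by library size only. The dotted line is the median of all genes under the latter scaling (0.46): *Ugcg*, *B4galt6*, *A4galt*, *Neu3* and *Hexa* lie right of it, and the other 4 genes lie left of it.

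The sequences upstream of the genes were searched for 3 motifs on both strands: CACGTG (the E-box), the palindrome of the CLEAR element found upstream of many lysosomal genes and GGGCGG (the GC box). The E-box lies within that palindrome. RefSeq windows on GRCm38.p6 of 250 bases upstream of the start were matched for 7 of the 9 genes, and not for *B4galt6* and *B4galnt1*. CACGTG was found in 0 of the 7 windows, against 6.02% of 32851 windows of all genes, and the CLEAR palindrome in 0 of 7, against 0.2405%. GGGCGG was found in 7 of 7, against 32.7%. The windows of *Hexa* (plus strand, chr9:59539290-59539539) and *Neu3* (minus strand, chr7:99828418-99828667) are shown as the upstream sequences of the 2 hydrolase genes that rose. They are given 5′ to 3′ along the gene, with each GGGCGG in capitals.

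Hexa: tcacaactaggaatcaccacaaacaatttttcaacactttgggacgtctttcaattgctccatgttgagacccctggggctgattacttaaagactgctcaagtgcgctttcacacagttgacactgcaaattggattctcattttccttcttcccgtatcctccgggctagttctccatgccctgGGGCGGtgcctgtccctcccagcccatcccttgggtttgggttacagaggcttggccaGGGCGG

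Neu3: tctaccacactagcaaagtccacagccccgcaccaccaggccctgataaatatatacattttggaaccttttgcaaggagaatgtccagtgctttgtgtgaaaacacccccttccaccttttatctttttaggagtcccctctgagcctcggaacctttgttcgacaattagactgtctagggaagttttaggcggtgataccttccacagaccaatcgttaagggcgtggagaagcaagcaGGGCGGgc

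*Hexa* carried 2 copies of GGGCGG in this window and *Neu3* carried 1. Among the 7 genes matched, *B4galt5*, which did not pass the test, carried the highest number, 7. These matches describe the letters of the windows only.

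Compared per length, the order of the genes changed at the top and among the lower genes. In control livers, *St3gal5* had the highest level, 82.1 ± 14.4 RPKM, followed by *Hexa* with 40.2 ± 3.45 and *B4galnt1* with 20.2 ± 4.13. In g*Spns1*-cKO livers *Hexa* came first with 86.8 ± 9.26 RPKM and *St3gal5* second with 67.1 ± 24.7, but the values of these 2 genes overlapped between mice. *B4galt5* (8.35 ± 1.59 RPKM) was above *Ugcg* (4.70 ± 0.20) in controls with no overlap, whereas *Ugcg* (8.28 ± 0.665) and *B4galt5* (8.02 ± 0.734) overlapped in g*Spns1*-cKO livers.

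Of the lower genes, *B4galt6*, *Gba2* and *Neu3* drew closer together in g*Spns1*-cKO livers, and *A4galt* did not join them. In controls, *Gba2* had 3.04 ± 0.486 RPKM, *Neu3* 0.468 ± 0.104 and *B4galt6* 0.282 ± 0.0906. In g*Spns1*-cKO livers, *B4galt6* had 1.79 ± 0.105 RPKM, *Gba2* 1.74 ± 0.196 and *Neu3* 1.64 ± 0.270, and each of these overlapped with its neighbour. *A4galt* was last in both groups, with 0.137 ± 0.0840 and 0.354 ± 0.0412 RPKM. In controls its values overlapped with those of *B4galt6*, the next gene above it. In g*Spns1*-cKO livers its values lay below those of *Neu3*, the next gene above, without overlap.

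Next, 6 pairs of genes were compared as ratios within each liver, which are free of the scaling between libraries. The exact permutation test, two-sided, cannot go below p = 0.1 with 3 mice against 3, and 5 of the 6 pairs reached this smallest value (p = 0.12 after Benjamini-Hochberg adjustment over the 6 pairs). The pairs were chosen with earlier results of these data known, and each of these 5 sets a gene called higher against one that was not. Their separation was thus largely set in advance and is not independent evidence. How often other pairs of genes separate was not tested. The ratios are log2 of levels per length.

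*B4galt6* to *B4galt5* was -5.18, -4.81 and -4.74 in controls, against -2.03, -2.27 and -2.18 in g*Spns1*-cKO mice, a 6.74-fold higher ratio with no overlap. *Ugcg* to *Gba2*, the enzymes that make and split glucosylceramide outside the lysosome, was 0.91, 0.59 and 0.42 in controls and 2.32, 2.21 and 2.22 in g*Spns1*-cKO livers. This ratio was 3.06-fold higher, and it varied little among the g*Spns1*-cKO mice (SD 0.06). A ratio shows unequal change of 2 genes and not which of them changed.

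*Hexa* was set against *Gm2a*, which encodes the GM2 activator that presents GM2 to the enzyme. The ratio was -0.28, -0.09 and 0.05 in controls and 1.53, 1.62 and 1.56 in g*Spns1*-cKO livers, 3.20-fold higher. *Gm2a* alone was lower in g*Spns1*-cKO livers (178 ± 6.39 and 121 ± 15.2 CPM, log2 fold change -0.56, standard error 0.12, adjusted p = 0.00449 by edgeR), but with scaling by library size only its log2 fold change was -0.12 (adjusted p = 0.42).

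*Neu3* was set against *Neu1*, the lysosomal sialidase gene, and the ratio was -4.27, -5.09 and -5.35 in controls and -3.83, -3.16 and -3.44 in g*Spns1*-cKO livers. The groups did not overlap and the ratio was 2.69-fold higher. For *Neu1* itself the log2 fold change was 0.37 ± 0.14 (standard error), with an adjusted p of 0.0605 by edgeR, and it passed with upper-quartile scaling (0.50, adjusted p = 0.0136) and with scaling by library size only (0.81, adjusted p = 0.000796).

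At the branch after lactosylceramide, *A4galt* to *St3gal5* was -9.95, -8.39 and -9.55 in controls and -7.07, -8.12 and -7.26 in g*Spns1*-cKO livers, 3.52-fold higher, with the highest control close to the lowest g*Spns1*-cKO liver. *B4galnt1* to *St3gal5* was -2.13, -1.71 and -2.27 in controls and -1.57, -2.50 and -2.08 in g*Spns1*-cKO livers. These values overlapped, and the means differed by -0.02 (exact permutation test, p = 1.0). Leaving out each mouse in turn moved this difference between -0.26 and 0.21.

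**Figure D3:**
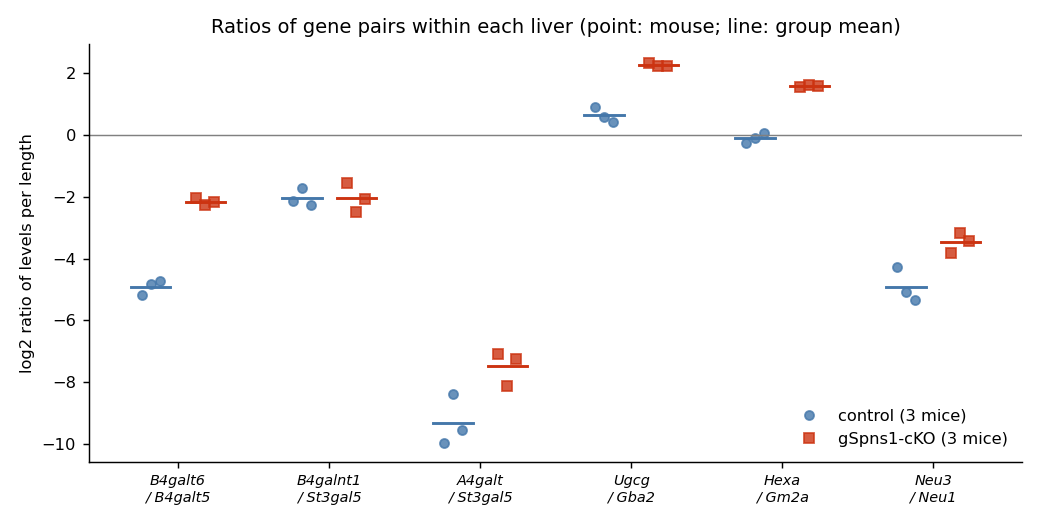
Each point is the log2 ratio of 2 genes' levels per length in 1 liver, for control (blue circles) and g*Spns1*-cKO mice (red squares), and lines are group means. The ratio of *B4galt6* to *B4galt5* had a mean of -4.91 in controls and -2.16 in g*Spns1*-cKO livers, 4 other ratios were also higher without overlap, and *B4galnt1* to *St3gal5* overlapped.

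The 9 genes were then placed among 46 genes of the pathway, of which 39 had enough counts to be tested. Of the 39, 16 were higher, 6 lower and 17 not called, with a median log2 fold change of 0.37, beside 21.3% higher and 20.5% lower and a median of 0.01 over all genes tested. Without the 9 genes, 11 of 30 were higher, 5 lower and 14 not called, and the median was again 0.37. Of these 30 genes, 26 reached the level required by the filter in both groups and 3 (*B3galt4*, *Gbgt1* and *B4galt2*) only in g*Spns1*-cKO livers. *Gbgt1* and *B4galt2* are among the genes called higher here, as is *A4galt* among the 39. The counts and medians thus include genes that the filter admitted where they were high, and they are not read as a result. With scaling by library size only, 24 of the 39 were called higher and 1 lower.

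In the list for synthesis and transfer of glucosylceramide and lactosylceramide, 3 of 6 genes were higher and 2 lower, with a median log2 fold change of 0.38. The genes beyond the 9 encode lipid transfer proteins or a relative of them. *Gltp*, the glycolipid transfer protein gene, had 3.59, 4.61 and 3.24 CPM in controls and 13.7, 13.3 and 15.5 CPM in g*Spns1*-cKO mice, a 3.70-fold rise (log2 fold change 1.89, standard error 0.17, adjusted p = 3.4e-05 by edgeR). *Gltpd2*, which encodes a protein with a glycolipid transfer domain, had 68.5, 104 and 99.2 CPM in controls and 46.1, 40.6 and 35.0 CPM in g*Spns1*-cKO livers. It fell with TMM, upper-quartile and library-size scaling alike (TMM log2 fold change -1.16, standard error 0.17, adjusted p = 0.000615). *Plekha8*, which encodes FAPP2, the protein that carries glucosylceramide to the trans-Golgi, was 42.5 ± 5.11 and 30.5 ± 3.18 CPM. Its log2 fold change was -0.48 (adjusted p = 0.0114 by edgeR), and -0.03 with scaling by library size only (adjusted p = 0.852). It shares 208 exon bases with *Fkbp14* on the opposite strand, which was higher (log2 fold change 0.53, adjusted p = 0.0311 by edgeR).

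In ganglioside synthesis, 3 of 9 tested genes were higher, 1 was lower and 5 were not called, with a median of 0.42. The genes called higher were sialyltransferases that also act on other glycans. *St6galnac4* rose from 0.812 ± 0.0857 to 2.34 ± 0.220 CPM (log2 fold change 1.52, standard error 0.27, adjusted p = 0.00163 by edgeR) and *St3gal2* from 2.74 ± 0.0348 to 5.05 ± 0.596 CPM (0.88, standard error 0.19, adjusted p = 0.00489). *St3gal1* was the other gene called higher (0.55, adjusted p = 0.00559). *St6galnac6* was 70.4 ± 11.4 and 43.1 ± 3.06 CPM, and its log2 fold change of -0.71 (adjusted p = 0.00194 by edgeR) lost its call with scaling by library size only (-0.26, adjusted p = 0.116). *St6galnac3* did not pass (0.42, adjusted p = 0.482).

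The list for the globo, isoglobo, lacto and neolacto series had 8 of 11 genes tested, and *A4galt*, *Gbgt1*, *B4galt2*, *B3galnt1* and *B4galt4* were called higher, all of them at low levels. *A4galt*, *Gbgt1* and *B4galt2* entered the test only through the g*Spns1*-cKO livers, where they were high, so the number called higher in this list and the absence of lower calls are not read as a result. Of the 4 genes that reached the filter level in both groups, *B3galnt1* and *B4galt4* were higher, and *B4galt1* and *B4galt3* were not called. *B3galnt1*, which encodes the enzyme that extends Gb3 to globoside, had 22, 26 and 19 counts in controls and 46, 73 and 84 in g*Spns1*-cKO livers (log2 fold change 1.16, standard error 0.32, adjusted p = 0.015 by edgeR). *Gbgt1*, the Forssman synthase gene, had 4, 1 and 1 counts in controls and 27, 23 and 19 in g*Spns1*-cKO livers. Its adjusted p was 0.00346, and its fitted log2 fold change of 3.03 (standard error 0.62) depends on the prior count because so few control reads were counted. *B4galt2* had a log2 fold change of 1.28 (adjusted p = 0.0381) and shares 1417 exon bases with *Ccdc24* on its own strand and 46 with *Slc6a9* on the opposite strand. *Slc6a9* was lower (log2 fold change -1.3, adjusted p = 8.73e-05 by edgeR), and *Ccdc24* had too few counts to be tested. *B4galt1*, the highest of the genes in this list that did not pass, was 61.0 ± 10.9 and 58.7 ± 2.95 CPM (-0.05, adjusted p = 0.769, and 0.39 with scaling by library size only, adjusted p = 0.0386).

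In lysosomal breakdown, 4 of 13 genes were higher, 2 lower and 7 not called, with a median of 0.37. *Ctsa*, which encodes the protective protein that stabilises lysosomal sialidase and galactosidase, rose from 190.5 ± 33.2 to 299 ± 6.30 CPM (log2 fold change 0.65, standard error 0.14, adjusted p = 0.0049 by edgeR). It shares 495 exon bases with *Pltp* and 324 with *Neurl2* on the opposite strand. Both of these were lower (log2 fold changes -2.0 and -1.01, adjusted p = 0.0111 and 0.0183 by edgeR). *Scarb2*, which encodes the receptor that carries lysosomal glucocerebrosidase, was 271 ± 27.5 and 177 ± 13.7 CPM (-0.61, standard error 0.13, adjusted p = 0.00369). As for *Gm2a*, the other gene called lower, the call of *Scarb2* was lost with scaling by library size only (-0.17, adjusted p = 0.266). *Psap*, the precursor of the saposins that help these enzymes, was above all controls in all g*Spns1*-cKO livers but did not pass (664 ± 85.2 and 863 ± 32.6 CPM, log2 fold change 0.38, adjusted p = 0.0603). It passed with upper-quartile scaling (0.51, adjusted p = 0.0165) and with scaling by library size only (0.82, adjusted p = 0.000939). Outside the lysosome lumen, *Neu2*, a cytosolic sialidase gene, had a log2 fold change of -0.17 (adjusted p = 0.635), and it shares 123 exon bases with *Ngef* on the opposite strand. *Ngef* had 6790 counts over all libraries against 383 for *Neu2*, and it was not called (log2 fold change -0.86, adjusted p = 0.0739 by edgeR).

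**Figure D4:**
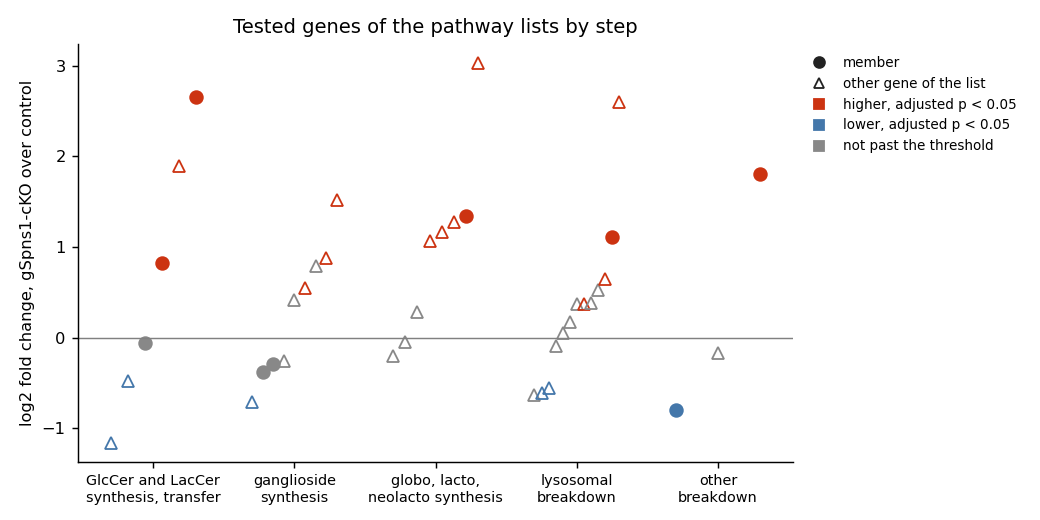
Each symbol is the log2 fold change (g*Spns1*-cKO over control) of 1 of the 39 tested genes, grouped by step, with the 9 genes as filled circles and other genes of the lists as open triangles. Red marks the 16 genes called higher, blue the 6 called lower and grey the 17 not called. *A4galt*, *Gbgt1*, *B4galt2* and *B3galt4* entered the test only through the g*Spns1*-cKO livers.

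The livers also differed in markers of their cell types. Of 10 macrophage markers, 9 were higher, and their summed level was 241 to 403 CPM in controls and 816 to 1177 CPM in g*Spns1*-cKO livers. All 6 cholangiocyte markers were higher (5.94 to 7.33 and 24.9 to 38.4 CPM), as were 5 of 7 stellate cell and fibroblast markers (176 to 206 and 460 to 529 CPM) and 5 of 6 endothelial markers (137 to 153 and 202 to 249 CPM). Of 5 lymphocyte markers 1 was higher (1.74 to 2.63 and 3.99 to 5.32 CPM), and of 4 neutrophil markers all 3 tested were higher (1.85 to 3.51 and 5.37 to 10.1 CPM). Hepatocyte markers were at high levels in every liver, but 4 of 7 were lower and none higher (summed level 102700 to 113100 and 61410 to 70430 CPM). *Ttr*, *Hnf4a* and *Cps1* were not called (log2 fold changes -0.47, -0.42 and 0.36), and *Cps1* was above all controls in all g*Spns1*-cKO livers. Most of the summed level was *Alb* (means 69350 and 41890 CPM). All marker levels and calls given here use TMM scaling. No marker was at 0 in every library.

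The part of these shifts in the levels of the 9 genes was not tested. The gene whose log2 CPM over the 6 livers was most like that of *Hexa* was *Lyz2*, itself a macrophage marker (Pearson r = 0.999 over 6 libraries that share their scaling). This was the highest r among the 12916 genes compared, of which 11.7% had an r over 0.9 with *Hexa*. The genes most like the rest of the 9, given at the end, were on none of the marker lists.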

How the data were processed

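RNA-Seq of 6 livers (3 control and 3 g*Spns1*-cKO mice, grouped by the sample titles) was examined. The submitters' processing notes name fastp, HISAT2 2.0.5, featureCounts 1.5.0-p3 and the genome build mm10. The strand setting of the counting is not given in the sources used here. The authors deposited whole-number counts per gene, which were not normalized, and FPKM values, which divide counts by gene length and library total. Their own fold changes and p-values were not used.

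Counts were tested in R 4.3.3 with edgeR 4.0.16 (filterByExpr, TMM scaling, robust quasi-likelihood test, no covariate), with Benjamini-Hochberg adjustment over all 15449 genes tested and a threshold of 0.05. The procedure was checked on simulated data. RPKM were computed from the scaled counts and deposited gene lengths. Ratios used an offset of 0.5 counts, and likeness used log2 CPM (prior count 2) over genes averaging 1 CPM or more. Deposited positions of the 9 genes were those of GENCODE M21 (GRCm38). No replicate pair agreed within sampling noise (chi-square per gene 42.5 to 126). The labels number the livers within a group and name no batch.

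The 9 genes, the pathway and marker lists and the tests were chosen with earlier results of these data known, and the study itself draws some of these genes from the same samples. In each pathway list the genes named were those among the 9, up to 3 others called with the highest absolute log2 fold change, and the most abundant other gene not called; *St3gal1*, *B4galt3* and *B4galt4* were added after their values were seen. The most alike gene by Pearson r was named for each of the 9. One gene that the rule selects is not reported here. One of 8 hepatocyte markers listed was not matched by its symbol. Alternatives were DESeq2 1.42.0, limma-voom (limma 3.58.1), other scalings (library size only, upper quartile, RLE), 2 other filters, protein-coding genes only, the deposited FPKM (pseudocount 0.1), a threshold of 0.01, other offsets, a replicate block and leaving out each mouse.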

Additional observations from a re-analysis of the deposited data

How the results depend on the processing

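*Ugcg* (log2 fold change 0.75 to 1.26), *B4galt6* (2.32 to 3.11), *Neu3* (1.61 to 2.24) and *Hexa* (1.02 to 1.56) kept their direction and call in all 16 alternatives tried for each. Scaling by library size only moved the most values. It gave 0.39 for *B4galt5*, 0.16 for *St3gal5* and 0.07 for *B4galnt1*, each reversed in sign, called 0 of the 9 genes lower and 1 of the pathway genes lower. Upper-quartile scaling gave 0.07 for *B4galt5*. The count of the 9 genes called lower was 2 with no filter on low counts, and between 1 and 2 when mice were left out in turn. The number called higher ranged from 4 to 6 over all alternatives. Of the pathway genes, 12 to 24 were called higher and 1 to 7 lower. Leaving out each mouse in turn moved *B4galt5* between -0.22 and 0.04, *St3gal5* between -0.61 and -0.08, *B4galnt1* between -0.54 and -0.23 and *A4galt* between 0.98 and 1.94. *A4galt* could not be tested where 10 counts were required in every library. Whether the replicate numbers of the labels pair the mice is not stated. Deviations of same-numbered livers correlated at 0.0371, 0.0331 and -0.0279, and those of the other pairs at -0.0654 to 0.0325. With 3 livers per group these values cannot decide whether the mice were paired. With a replicate block, 3084 genes were higher and 3016 lower, 2 of the 9 genes were called lower because *B4galnt1* passed (-0.36, adjusted p = 0.0495), and *A4galt* did not pass (1.43, adjusted p = 0.0599). The order of levels per length was the same for 9 of 9 genes in both groups with the deposited FPKM. These divide the same counts by gene length, so the sameness was largely set in advance and is no separate check. The causes of these shifts were not tested. Low counts limit the precision for *A4galt*, *Gbgt1*, *B3galt4* and *Fut1*, and 7 pathway genes had too few counts to be tested.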

Other observations

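Of the 46 pathway genes, 7 had too few counts to be tested. *St8sia5* and *Neu4* had 0 counts in all 6 libraries, and a count of 0 allows up to 3 counts in a library. *St8sia1* had 22 counts over all libraries and *St6galnac5* had 3, all in 1 control. *Fut2*, a fucosyltransferase gene, had 2, 0 and 0 counts in controls and 6, 10 and 9 in g*Spns1*-cKO livers. *A3galt2*, the isoglobotriaosylceramide synthase gene, had 0, 0 and 0 counts against 2, 1 and 3, and *B3gnt5*, which opens the lacto series, had 6, 2 and 1 against 7, 2 and 0. *Tmem202*, on the strand opposite *Hexa*, had 0 counts in each control and 10, 8 and 7 in g*Spns1*-cKO livers.

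The genes most like the others of the 9 in log2 CPM over the 6 libraries, which share their scaling, were *Rassf2* for *Ugcg* (Pearson r = 0.9985), *Gdpd1* for *B4galt6* (0.9991) and *Fam49b* for *Neu3* (0.9996). For these 3 genes, between 12.1% and 13.3% of all genes compared had an r over 0.9. For genes whose groups overlapped this share was far lower: *Plec* was most like *B4galt5* (0.9725, with 0.3% of genes over 0.9), *Dock4* most like *St3gal5* (0.9924, 0.8%) and *Med25* most like *B4galnt1* (0.9958, 1.8%). *Thnsl1* was most like *A4galt* (0.9925, 3.4%) and *Slc38a2* most like *Gba2* (0.9955, 9.7%).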
